A study of Mus musculus with 8 samples.

Results

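Of the 98945 autosomal regions of H3K27me3 found in 5 mouse libraries, 311 carried a peak in the astrocyte library AstroEGFR 3 and in the glioma library PT3 and in none of AstroEGFR 1, PT1 and PT4. They were chosen by the peaks themselves: all peaks of the 5 lists were pooled, peaks that overlapped or touched were merged into regions, and regions on chromosomes 1 to 19 with peaks from AstroEGFR 3 and PT3 alone were kept. Their presence in these libraries and absence from the others is therefore a description and was not tested. The members made up 0.314% of the autosomal regions.

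H3K27me3, the trimethylated form of lysine 27 of histone H3, is laid down by Polycomb repressive complex 2, whose catalytic subunit is EZH2 or EZH1. The mark accompanies gene silencing, it lies over the promoters and bodies of many developmental genes in cells that do not use them, and it can be passed on through cell division. In neural cells it is known for keeping genes of other lineages and other stages silent, and its pattern differs between cell types of the brain.

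AstroEGFR cells, replicates 1 and 3, were astrocytes from the cerebral cortex of C57BL/6 pups at postnatal day 5, without p16/p19 (the Ink4a/Arf locus) and infected with a retrovirus for human EGFRvIII, a constitutively active form of the receptor. The PT libraries (1, 3 and 4) came from glioma propagating cells grown out of tumours that such C57BL/6 cells had formed in the brain of 5-week-old female CD1 Nude hosts, so that PT shared the deletion and the receptor with AstroEGFR. Astrocytes were grown in serum and PT cells in a serum-free medium with EGF and FGF2, so that stage and medium cannot be told apart, and all cultures had been kept for fewer than 10 passages. Tumour pieces were dissociated and plated, no sort is described, and whether host cells remained was not tested. The labelled cell types were not checked, since peaks were not assigned to genes here.

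The lists held between 3722 peaks (AstroEGFR 3) and 66279 peaks (PT4), with 40090 in PT3. Sequencing depth is unknown, so the lack of a peak means only that none was called. AstroEGFR 3 and PT3, the libraries that define the members, were also the ones whose lists had 0 peaks on unplaced sequences, against 179 to 236 in the other 3 lists. That feature and the membership of a region cannot be told apart. In the study each tumour grew from a batch of AstroEGFR cells, and PT3 may derive from AstroEGFR 3, but the labels do not say that the number ties a tumour to its batch. Descent and that feature of the lists cannot be told apart either. There was 1 library of each stage on the marked side, so every difference below is between single libraries and has no replicate check.

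The members stood out in number among the regions that AstroEGFR 3 shared with a single PT library. AstroEGFR 3 had 311 regions with PT3 alone, 67 with PT4 alone and 43 with PT1 alone, although the PT3 list was the shortest of the 3 PT lists. PT3 was thus the partner in 73.9% of the 421 regions of AstroEGFR 3 with a single PT partner. For AstroEGFR 1 it was the partner in 711 of 4599 such regions (15.5%), where PT1 held 2062 and PT4 1826. AstroEGFR 1 and AstroEGFR 3 shared 23 regions that were absent from the 3 PT lists. When the 3 PT lists were limited to their strongest 40090 peaks, a setting chosen after seeing the data, AstroEGFR 3 shared 376 regions with PT3 alone, 43 with PT4 alone and 34 with PT1 alone. AstroEGFR 1 then shared 1229 regions with PT3 alone, 1668 with PT4 alone and 1980 with PT1 alone. PT3 was thus a more frequent partner of AstroEGFR 1 than with the full lists, but still the least frequent of the 3. These counts restate the choice of the members, and they were not tested.

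**Figure D1:**
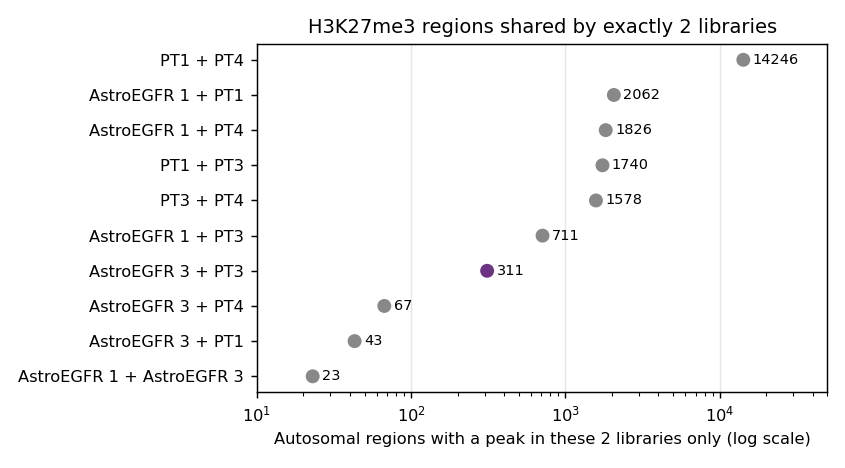
Number of autosomal regions (horizontal axis, log scale) with a peak in exactly 2 of the 5 libraries, for the 10 pairs of libraries. The members (purple, 311 regions) lie above the other 3 pairs that include AstroEGFR 3 (23 to 67 regions) and below the 6 pairs without it (711 to 14246 regions).

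Over the whole lists, the shares of AstroEGFR 3 regions with a peak of each PT list were close together. They were not adjusted for list length: PT3 peaks covered 1.58% of the autosomal span, PT1 peaks 3.54% and PT4 peaks 3.41%. Of the 2933 autosomal regions with an AstroEGFR 3 peak, 2002 (68.3%, Wilson 95% CI 66.6 to 69.9) had a PT3 peak, 1953 (66.6%, CI 64.9 to 68.3) a PT4 peak and 1939 (66.1%, CI 64.4 to 67.8) a PT1 peak. These intervals overlap, but the shares are taken over the same regions. The intervals cover counting error only, since neighbouring regions are not independent. Regions marked in the other lists were then set aside. Among the 798 autosomal regions of AstroEGFR 3 with no peak in AstroEGFR 1, PT1 or PT4, 39.0% (CI 35.6 to 42.4) had a PT3 peak. Among the 15815 such regions of PT3, 1.97% (CI 1.76 to 2.19) had an AstroEGFR 3 peak. The members made up 10.6% of the regions of AstroEGFR 3 and 0.975% of those of PT3.

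Most members were simple: 296 of 311 (95.2%) consisted of 1 AstroEGFR 3 peak and 1 PT3 peak. In all 311 the peaks overlapped directly, which the rule nearly fixes, since it requires them to overlap or touch. The median overlap was 615 bp. In 276 members (88.7%) the overlap reached at least 50% of the shorter peak, and its median was 96.9% of that peak. The centres of the peaks lay a median of 188 bp apart in the single-peak members. In 93 of these 296 members the AstroEGFR 3 peak lay inside the PT3 peak, in 35 the PT3 peak lay inside the AstroEGFR 3 peak, and in 168 they overlapped in part.

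The median width of the members was 1221 bp, and 5% of them were wider than 2825 bp. PT3 peaks covered a median of 947 bp of a member and AstroEGFR 3 peaks 756 bp, and PT3 covered more than AstroEGFR 3 in 200 of 311 members (64.3%). The other pairs that hold AstroEGFR 3 had medians of 1149 bp (AstroEGFR 1), 1022 bp (PT1) and 987 bp (PT4). Regions in AstroEGFR 3 only had a median of 679 bp and regions in PT3 only one of 639 bp, but merging makes regions of more than 1 list wider.

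At the edges of the rule, the smallest overlaps between the peaks of a member were 24, 35 and 39 bp, and the closest pairs of an AstroEGFR 3 only and a PT3 only region that failed it were 41, 47 and 74 bp apart. The members closest to a peak of the other lists were 34, 39 and 42 bp away from it, and the regions that came closest to membership had 30, 37 and 42 bp of their AstroEGFR 3 and PT3 span overlapped by such peaks.

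The score of a peak is the value that the peak caller gave it, and it was used as a percentile within its own list. Members ranked higher in PT3 than in AstroEGFR 3: the median percentile was 71.1 in PT3 and 47.5 in AstroEGFR 3, and 207 of 311 members (66.6%) had the higher percentile in PT3. The lists differ more than 10 times in length, so their percentiles are not on one scale. The scores ran from 70.2 to 2786 with a median of 88.4 in AstroEGFR 3, and from 83.6 to 2836 with a median of 178 in PT3.

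Set beside other regions that PT3 shared with 1 library, the PT3 peaks of members ranked high, but the partner lists differ in length. AstroEGFR 3 held 3722 peaks and the other partners 34021 to 66279, and these classes were not compared at equal partner length. The median percentile in PT3 was 48.1 in regions with PT1 alone, 47.2 with PT4 alone, 51.0 with AstroEGFR 1 alone and 41.4 in PT3 only. Of the members, 61 (19.6%) were in the upper 10% of PT3, against 10.2% of all autosomal regions with a PT3 peak. In AstroEGFR 3 they did not rank high: 30 members (9.65%) were in the upper 10%, against 9.48% of all autosomal regions with an AstroEGFR 3 peak. In the upper 50% stood 212 members (68.2%) in PT3, against 50.8% of its autosomal regions, and 145 (46.6%) in AstroEGFR 3, against 48.9%. The median AstroEGFR 3 percentile was 42.2 in regions shared with PT4 alone, 41.5 with PT1 alone, 44.0 with AstroEGFR 1 alone and 32.6 in AstroEGFR 3 only. Regions of all 5 libraries stood at 63.4 in AstroEGFR 3 and 93.5 in PT3, above the members in each list.

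The share of AstroEGFR 3 regions that PT3 also marked was higher among stronger AstroEGFR 3 peaks. Among the 798 AstroEGFR 3 regions without the other 3 lists, 25.1% (66 of 263) of those up to percentile 25 of the list were members, 41.5% (73 of 176) of those between percentiles 50 and 75, 64.6% (42 of 65) between 75 and 90, and 76.9% (30 of 39, CI 61.7 to 87.4) in the upper 10%. PT4 and PT1 were treated in the same way, each over the AstroEGFR 3 regions without the remaining 3 lists. The share with PT4 was also higher among stronger peaks, at 9.22% up to percentile 25, 10.9% and 14.2% in the next bands and 28.1% (9 of 32) between 75 and 90. With PT1 it was 7.94%, 4.91%, 11.2% and 17.9% (5 of 28) in these bands. For PT4 the share in the upper 10% was 18.2% (2 of 11, CI 5.14 to 47.7), and for PT1 it was 0 of 9 (CI 0 to 29.9). A count of 0 was also taken to allow 3 counts, a rougher limit than the interval and here 33.3%. Seen from PT3, members made up 0.992% of its otherwise unshared regions up to percentile 25 and 11.9% (61 of 513, CI 9.37 to 15.0) in its upper 10%. In the upper 10% of PT4 the corresponding share with AstroEGFR 3 was 0 of 66 (CI 0 to 5.50), where 3 counts would be 4.55%.

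**Figure D2:**
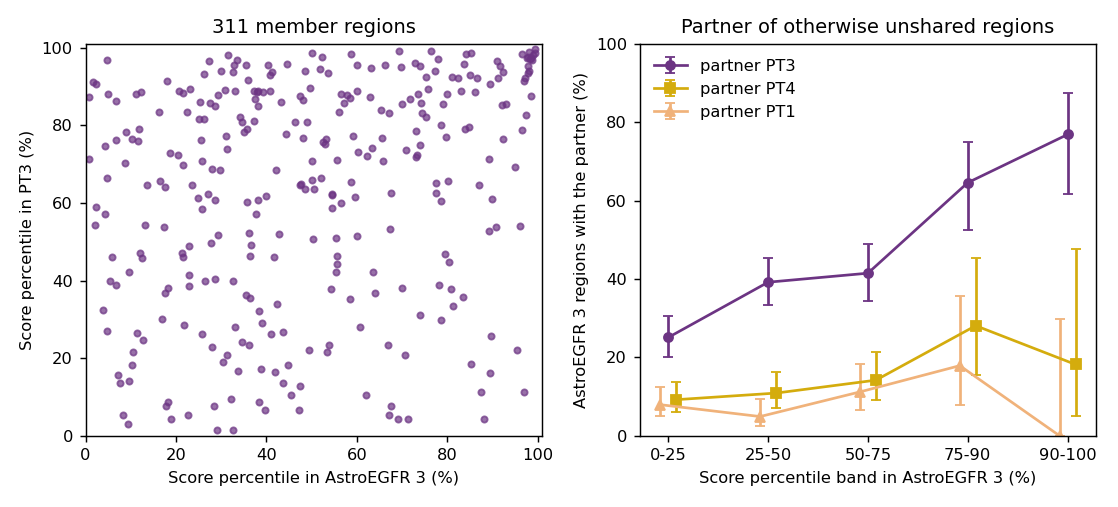
Left, score percentile of each of the 311 members in AstroEGFR 3 (horizontal) and PT3 (vertical), 1 point per region. Right, share of AstroEGFR 3 regions that had a peak in PT3, PT4 or PT1 as the only partner, by band of AstroEGFR 3 percentile, with Wilson 95% intervals. The share with PT3 runs from 25.1% in the lowest band to 76.9% in the highest and lies above those with PT4 and PT1 in every band.

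Within the members the ranks in the libraries were loosely related, with a Spearman rho of 0.27 across the 311 regions. The points come from 2 libraries only and neighbouring regions are not independent, so the value is a description. In 112 members (36.0%) both peaks were in the upper 50% of their lists, in 66 (21.2%) neither was, and 19 members (6.11%) were in the upper 10% of each.

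The 10 members that ranked highest in both lists are given as positions on mm9, the build named in the submitters' processing notes. The strongest, on chromosome 1 from 87487289 to 87490198, was 2910 bp wide. It scored 2786.28 in AstroEGFR 3 and 2835.83 in PT3, percentiles 99.4 and 99.7, and the peaks shared 2728 bp. The nearest peak of another list, in PT4, was 108122 bp away, and the other 2 lists were farther still.

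The second, on chromosome 17 from 36621107 to 36622070, had scores of 2083.41 in AstroEGFR 3 and 1266.91 in PT3 and lay 63011 bp from a PT4 peak. It was only 964 bp wide, and the peaks shared 915 bp of it. The third and the seventh were neighbours on chromosome 2, from 27354304 to 27358074 and from 27352126 to 27353887. Their scores were 1330.18 and 898.61 in AstroEGFR 3 and 1022.03 and 832.81 in PT3. PT1 had a peak 4979 and 2801 bp from them, whereas AstroEGFR 1 and PT4 had none within 50 kb.

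The fourth, on chromosome 8 from 72403727 to 72408385, was unequal: the PT3 peak covered all 4659 bp with a score of 1366.51, and the AstroEGFR 3 peak covered 2874 bp with a score of 580.71. A PT4 peak lay 1911 bp from it. A pair of regions on chromosome 12 from 58641567 to 58645009 and from 58635823 to 58638615, belonged to a group of 7 neighbours that is mapped further on. The sixth, on chromosome 13 from 120278192 to 120280146, had a PT1 peak 2624 bp away but no AstroEGFR 1 peak within 1062571 bp.

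The eighth lay on chromosome 9 from 13422448 to 13423522, with scores of 669.74 in AstroEGFR 3 and 812.48 in PT3. The ninth lay on chromosome 5 from 105356296 to 105358024, with scores of 1137.21 and 770.35. All other lists were at least 104701 bp away from the eighth and at least 192479 bp from the ninth. Of these 10 members, 6 had a PT1 or PT4 peak within 10 kb, 0 had an AstroEGFR 1 peak within 10 kb, and 4 had no peak of the other lists within 50 kb.

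Of the 5 widest members, 3 were PT3 regions with a small AstroEGFR 3 peak inside. The widest of all, on chromosome 2 from 165174833 to 165180367, measured 5535 bp, all of it in a PT3 peak that scored 1711.44, while the AstroEGFR 3 peak covered 1073 bp and scored 135.58. On chromosome 6 from 30906037 to 30910129 the PT3 peak covered 4093 bp and the AstroEGFR 3 peak 890 bp, and each of the other 3 lists had a peak within 572 bp. On chromosome 13 from 38286277 to 38290127 the values were 3851 and 941 bp. In these 3 regions the percentile was 98.4 or more in PT3 and between 58.7 and 76.5 in AstroEGFR 3. The other 2 of the 5 widest, on chromosomes 2 and 8, were also among the strongest.

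At the opposite end were members far from any peak of AstroEGFR 1, PT1 or PT4. The farthest, on chromosome 1 from 48938029 to 48938951, was 1980310 bp from such a peak. It was a modest region, with scores of 115.16 in AstroEGFR 3 and 138.72 in PT3. The next, on chromosome 1 from 189431390 to 189433945, was 844844 bp away and scored 627.3 in PT3. A pair on chromosome 4, starting at 145741062 and 145661412, was 834989 and 755339 bp away and ranked low in PT3, at percentiles 4.26 and 19.1. The fifth, on chromosome 12 from 20238484 to 20240258, was 689578 bp away and ranked high in each list (97.0 in AstroEGFR 3 and 91.4 in PT3).

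The distance of members from the other lists was like that of unshared regions. The median distance to a peak of AstroEGFR 1, PT1 or PT4 was 4414 bp, and 145 members (46.6%) lay more than 5 kb away, against 51.2% of all 16302 autosomal regions without a peak in these lists. For regions in AstroEGFR 3 only the share was 49.3% (CI 44.9 to 53.7) and for PT3 only 51.3% (CI 50.5 to 52.1), and the interval of the members (41.2 to 52.2) holds each of them. Within 5 kb, 129 members had a PT4 peak, 117 a PT1 peak and 64 an AstroEGFR 1 peak. All 3 lists were that near in 43 members (13.8%), and in 59 members such peaks lay on either side of the member.

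The surroundings held more of the mark than the genome at large. At 2 to 10 kb from the centre of a member, PT3 peaks covered on average 10.9% of positions, against 1.58% of the autosomal span, and AstroEGFR 3 peaks 1.97% against 0.135%. PT4 covered 8.55%, PT1 8.03% and AstroEGFR 1 5.0%, against 3.41%, 3.54% and 2.02% of the span. The same 3 lists covered similar shares around regions in AstroEGFR 3 only (8.12%, 7.69% and 5.35%) and in PT3 only (7.27%, 7.58% and 4.36%). PT3 covered 4.70% around regions in AstroEGFR 3 only and 9.72% around its own unshared regions. AstroEGFR 3 covered 2.12% around its own unshared regions and 0.370% around those in PT3 only. At 40 to 50 kb from the centre of a member, PT4 still covered 7.46%, PT1 7.24% and AstroEGFR 1 5.01%. The excess of these lists was thus not confined to the near surroundings. PT3 covered 6.59% and AstroEGFR 3 1.02% at that distance, less than nearby but above their share of the span.

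**Figure D3:**
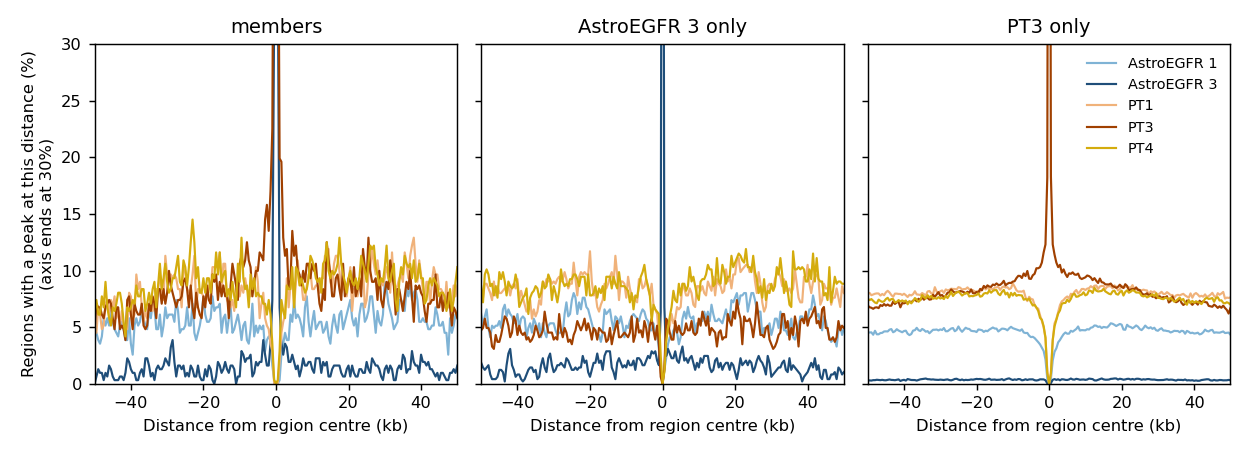
Share of regions (vertical axis, cut at 30%) with a peak of each library at a given distance from the region's centre (horizontal axis, kb), for the members, the regions in AstroEGFR 3 only and those in PT3 only. AstroEGFR 1, PT1 and PT4 fall to 0 at the centre by the choice of regions, and around the members PT3 stays at 10.9% on average between 2 and 10 kb.

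Members lay nearer than regions in PT3 only to regions marked in all 5 libraries. Of the members, 88 (28.3%, CI 23.6 to 33.5) were within 100 kb of a region marked in all 5, as were 29.8% (CI 25.9 to 34.0) of regions in AstroEGFR 3 only and 15.9% (CI 15.3 to 16.5) of regions in PT3 only. The median distances were 381544, 375858 and 709251 bp. In this respect the members resembled the unshared regions of AstroEGFR 3 more than those of PT3. However, a region of all 5 holds an AstroEGFR 3 peak by definition, as do members and regions in AstroEGFR 3 only. Regions in PT3 only lack one by the choice of regions. The resemblance cannot be told apart from these definitions and was not tested.

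Chromosome 12 held more members than any other autosome. It had 52 of the 311 (16.7%, CI 13.0 to 21.3), with 4.89% of the autosomal span and 3.96% of all autosomal regions. AstroEGFR 3 as a whole had 14.6% of its autosomal regions on this chromosome and PT3 3.36%. The unshared regions of AstroEGFR 3 were still more concentrated there, with 125 of 487 (25.7%), and those of PT3 were not (2.92%). A chromosome 12 region of AstroEGFR 3 without the other 3 lists was thus a member in 29.4% of cases (52 of 177, CI 23.2 to 36.5), and on the other autosomes in 41.7% (259 of 621, CI 37.9 to 45.6).

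The chromosome 12 members ranked lower in PT3 than the rest, with a median percentile of 52.6 against 73.2, and somewhat higher in AstroEGFR 3, with 55.1 against 46.3. Their median width was 1224 bp, close to the 1216 bp of the others. Chromosome 2 followed with 34 members (10.9%), chromosome 4 with 28 and chromosome 8 with 23. Per 10 Mb of span these chromosomes held 1.87, 1.80 and 1.75 members, against 4.31 on chromosome 12.

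Chromosome 10 held few members and few regions in AstroEGFR 3 only. It held 16.1% of the regions in PT3 only but 6 members (1.93%) and 2 of the 487 regions in AstroEGFR 3 only. Of all autosomal regions with an AstroEGFR 3 peak it had 90 (3.07%), with 5.21% of the span. Its AstroEGFR 3 regions without the other 3 lists numbered 8, of which 6 were members. Chromosome 3, with 6.46% of the span, 2.80% of AstroEGFR 3 regions and 4.10% of all autosomal regions, had 5 members (1.61%). Chromosome 19, with 2.76% of AstroEGFR 3 regions and 3.26% of all autosomal regions, had 2 (0.643%). On chromosome 12 the share of the members lay between those of regions in AstroEGFR 3 only and in PT3 only, and above those of all regions of either list.

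**Figure D4:**
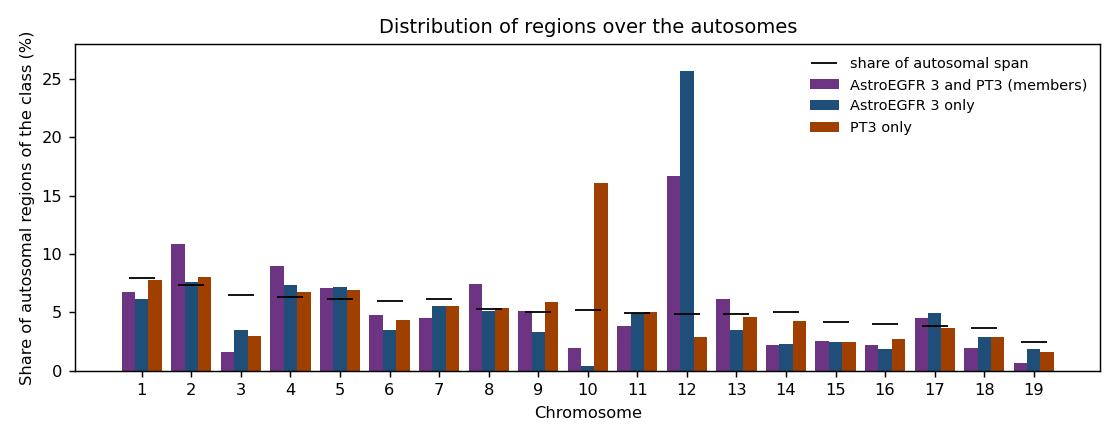
Share of the members (purple), of regions in AstroEGFR 3 only (blue) and of regions in PT3 only (brown) on each autosome, in percent of the class, with the share of the autosomal span as a black line. On chromosome 12 the members reach 16.7% and AstroEGFR 3 only 25.7%, and on chromosome 10 PT3 only reaches 16.1% against 1.93% of the members.

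Most members stood alone: 258 had no other member within 50 kb. The other 53 (17.0%) formed 21 groups, of which 15 were pairs, 4 held 3 members, 1 held 4 and 1 held 7. The group of 7 lay on chromosome 12 from 58627912 to 58677824, a span of 49913 bp. Inside it AstroEGFR 3 had 8 peaks and PT3 11, against 2 in PT1, 1 in PT4 and 0 in AstroEGFR 1. Groups are made of members, so such an excess of AstroEGFR 3 and PT3 peaks follows largely from the rule, here and below.

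Members 2, 3 and 4 of the group, counted from its start, lay side by side between 58635823 and 58645009 and made up its core. Their scores were 1177.52, 490.4 and 923.0 in PT3 and 363.81, 94.09 and 543.07 in AstroEGFR 3. The fifth region, from 58649264 to 58651220, was a weak overlap, in which the peaks shared 96 bp. Within 100 kb of the centre of the group the other lists did hold peaks of some strength, with highest scores of 652.2 in AstroEGFR 1, 505.63 in PT4 and 461.66 in PT1, but these lay outside the core, the AstroEGFR 1 peak 10461 bp from it. The nearest peak of these lists, 8078 bp from the core, was a PT1 peak with a score of 108.12.

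**Figure D5:**
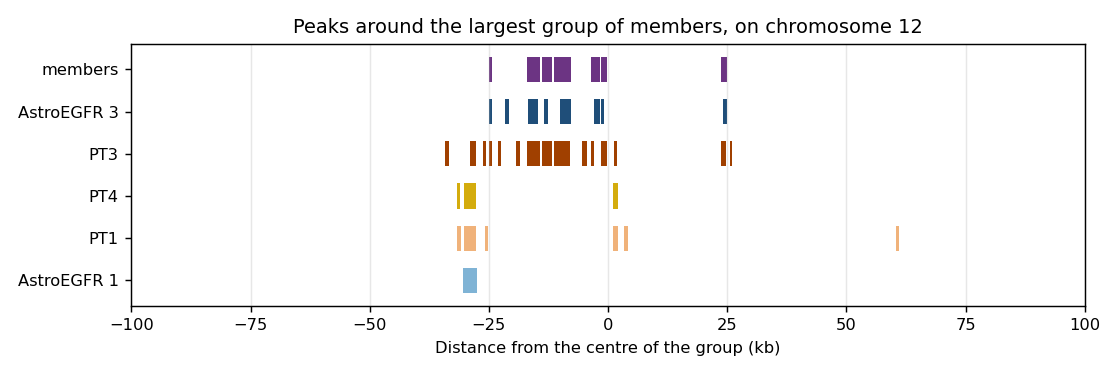
Peaks of the 5 libraries and the members within 100 kb of the centre of the group of 7 members on chromosome 12 (horizontal axis, distance in kb). The whole window holds 8 peaks of AstroEGFR 3, 15 of PT3, 1 of AstroEGFR 1, 6 of PT1 and 3 of PT4. AstroEGFR 1, PT1 and PT4 have none in the core of the group, and in the members themselves they have none by the choice of regions.

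A pair of groups lay close together on chromosome 8. One held 4 members from 123340450 to 123396472, where PT3 had 13 peaks, AstroEGFR 3 had 5 and PT4 had 4. The other held 3 members from 123558045 to 123586449, with 11 peaks of PT3, 3 of AstroEGFR 3 and 0 of the other 3 lists. A further group of 3, on chromosome 8 from 94256359 to 94277255, had 6 peaks of PT3, 3 of AstroEGFR 3 and 0 of the others. By contrast, 3 members on chromosome 1 from 184557738 to 184605445 lay among 18 peaks of PT3, 8 of PT4, 7 of AstroEGFR 1, 4 of AstroEGFR 3 and 3 of PT1.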

How the data were processed

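H3K27me3 ChIPseq was made in 5 libraries (AstroEGFR 1 and 3, PT1, PT3 and PT4). The 3 input libraries were not analysed here. According to the submitters' processing notes, reads were aligned with Bowtie 0.12.9 to mm9 and peaks were called with MACS 1.4.1. Each deposited list was called by the authors on 1 library and holds positions and names of peaks with a score for each, whose scale is not given in the sources used here. Read depth, the input used and thresholds are likewise not given. Deeper libraries can yield more peaks, so list lengths are not comparable as amounts of the mark.

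Python 3.11.15 and pandas 2.3.3 were used throughout. Peaks were merged where they overlapped by 1 bp or touched, with the same result in bedtools 2.31.1, and the functions were tested on simulated data. Score percentiles were taken within each full list, shares carry Wilson 95% intervals (scipy 1.17.1) and spans run to the last peak in any list. Groups and replicate numbers came from the sample titles. The members, settings and rule for named regions were chosen with earlier results of these data known. The rule named the 10 members whose lower percentile over the lists was highest, the 5 widest and the 5 farthest from the other lists. No test was made, since the members rest on 1 library of each stage. The reference tables at hand are on another build, GRCm38, so genes near the members, start sites, the cell types and sequences were not analysed here. Figures were drawn with matplotlib 3.10.9.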

Additional observations from a re-analysis of the deposited data

Results flagged for a closer look

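The sex chromosomes lay outside the choice of members, and regions with peaks in AstroEGFR 3 and PT3 alone were present there too. They drew attention because they lie outside the comparison and number more than the 3 counts that a count of 0 allows, which sets no expected rate. Chromosome X held 18 such regions, with a median percentile of 95.2 in AstroEGFR 3 and 71.7 in PT3. Chromosome Y held 13, with a median width of 3177 bp and median percentiles of 99.0 and 93.4. On chromosome X the lists held 55 peaks in AstroEGFR 3, 49 in PT3 and 39 in AstroEGFR 1, against 304 in PT1 and 255 in PT4. There were 24 peaks on chromosome Y in AstroEGFR 3, 23 in PT3, 6 in PT1 and 2 each in AstroEGFR 1 and PT4.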

How the results depend on the processing

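Of the alternatives, the omission of chromosome 12 and the limit on the PT lists were added after seeing the data. The 311 members became 165 when each list was reduced to its upper 50%, 117 with a score of at least 100 and 145 more than 5 kb from the other lists, and stayed within 1.5 times with equal numbers of peaks (247), stricter overlap (276 or 307), merging across gaps of 1000 bp (241), all chromosomes (342) and without chromosome 12 (259). A similar count does not mean the same regions, because dropping weaker peaks of the other lists lets new regions qualify. Of the 311 members, 112 were in the upper 50% of both lists and 61 in the upper 10% of PT3. With equal numbers of peaks, 3722 of the 40090 PT3 peaks were kept. Leaving out each library in turn gave 328 to 15850 regions. The highest numbers came without AstroEGFR 3 (15850) and without PT3 (848), where the choice rests on 1 library by construction. Without AstroEGFR 1, PT1 or PT4 they were 328, 387 and 373.

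The median width was 1463 bp in the upper 50%, 1549 bp with a score of at least 100, 2356 bp with equal numbers of peaks and 1470 bp with merging across gaps, and 640 to 1224 bp with each library left out. The median percentile in AstroEGFR 3 was 74.0, 80.0 and 64.7 under the first 3 of these and 53.7 away from the other lists (37.9 to 48.5 with each library left out), and in PT3 it was 83.5, 85.5 and 95.6 (41.7 to 73.2). Score filters raise these values by construction. The share more than 5 kb from the other lists was 68.5%, 57.3% and 81.0% under the same 3 settings, 62.7% with merging across gaps, 54.3% with the PT lists limited, 100% by construction when near members were left out, and 46.3% to 51.2% with each library left out. Direct overlap fell to 88.0% with merging across gaps and stayed at 100% otherwise, where the rule requires the peaks to overlap or touch. The share on chromosome 12 was 12.6% with equal numbers of peaks and 3.23% to 21.5% with each library left out, lowest without AstroEGFR 3 and highest without PT3.

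No paired analysis was possible because the regions come from no test and the labels do not say that a number ties PT cells to their astrocyte batch. Side by side, AstroEGFR 1 and PT1 alone shared 2062 regions, and AstroEGFR 3 and PT3 alone the 311 members. Alternatives on gene start sites, gene lists and sequence were not run, as the annotation at hand is on another build. Unknown read depth limits every statement on a missing peak.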
